A study of Homo sapiens with 6 samples.

Results

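Cytoplasmic dynein, its partner complex dynactin and the adaptor and regulatory proteins that bind them were followed as a set of 34 named genes in hTERT RPE1 cells, an established human retinal pigment epithelial line immortalised with telomerase. Members were chosen by gene symbol, and 33 of the 34 had a row among the 38900 Ensembl gene IDs of the deposited table. Expression of NDE1 was not analysed here. In all groups the cells had been held at full confluency for 5 days, a treatment meant to bring them to quiescence, before fresh medium was added for 6 hours. That medium carried 100 nM combretastatin A4 (CA4), which binds tubulin and depolymerizes microtubules, in 3 libraries of polyA RNA, and 0.1% DMSO, the solvent, in the other 3. The comparison asks what happens to the transcripts of this transport system when its tracks are taken apart in cells labelled quiescent.

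Cytoplasmic dynein is the motor that walks toward the minus ends of microtubules, and it carries endosomes, Golgi membranes, mitochondria and other cargo toward the cell centre. Its heavy chain holds the motor domain, and intermediate, light intermediate and light chains hang the cargo-binding parts on it. Dynactin is built on a short filament of the actin-related protein ARP1, and coiled-coil adaptors such as BICD2 and the HOOK proteins join motor, dynactin and cargo into a moving complex. LIS1, encoded by PAFAH1B1, and its partners NDE1 and NDEL1 help the motor to assemble with them.

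Values are normalized counts, that is, reads divided by a scaling factor of the library, and each library held between 19524936 and 22538004 recovered reads. At this depth 1 read was worth 0.935 to 1.12 normalized counts, so counting error was small for all but the lowest members. Nothing in the labels says that the 3 libraries of a group came from separate cultures, so p-values measure the spread between these libraries. The identity of the cells was checked on 12 markers of retinal pigment epithelium. KRT8 lay between 14118 and 16502 normalized counts, KRT18 between 8393 and 14918, CDH2 between 12355 and 15750, MITF between 322 and 1085 and OTX2 between 226 and 630. BEST1 lay between 42.5 and 99.7, RPE65 between 13.5 and 40.8 and PMEL between 8.41 and 22.3, RLBP1, TYR and TYRP1 did not exceed 5.70, and TTR was listed at 0 in all 6 libraries. OTX2 fell (log2 fold change -1.11, adjusted p = 0.0158 in limma) and CDH2 rose (0.31, adjusted p = 0.0452 in limma). MITF at -0.98 and KRT18 at 0.46 did not pass (adjusted p = 0.100 and 0.0849 in limma). In edgeR 0 of these markers were called higher and 1 lower, and in DESeq2 2 and 2. Of 9 markers of other cell types 5 were abundant enough to test, and TUBB3, a tubulin gene listed as a neuron marker, was the one that passed, falling from 6822 ± 818 to 1024 ± 96.8 normalized counts (SD, n = 3 each). Its log2 fold change was -2.73 (adjusted p = 2.87e-04 in limma). PECAM1 lay between 284 and 338 in DMSO and between 357 and 916 in CA4 (adjusted p = 0.215 in limma). The fibroblast genes differed from each other, with COL1A1 between 25922 and 62433 and COL1A2 between 12.3 and 59.8, and PDGFRB lay between 3537 and 6517. EPCAM did not exceed 4.46, PTPRC 10.6, GFAP 13.5 and RBFOX3 18.9. The part of these markers in the results below was not tested. All 25 genes of a proliferation list had their highest value of each group in replicate 1, in DMSO as in CA4. The members with their highest value of each group in replicate 1 were SPDL1, DYNLL1, DCTN1, ACTR1B, HOOK3 and TRAK2. On the first principal component of all tested genes, DMSO replicate 1 lay nearest to the CA4 libraries, at -10.91 against 17.25 for the closest of them.

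Testing was limited to genes whose mean over the 6 libraries reached 10 normalized counts, which 32 of the 33 members did and HOOK1 did not. Fold changes are on the scale log2(normalized count + 1) and were tested in limma's moderated model over all 13928 genes with enough counts, with Benjamini-Hochberg adjustment and a threshold of 0.05. NDEL1 and BICD1 rose in CA4, and 0 members passed as lower. These 2 of 32 members (6.25%) compare with 4.94% of all genes tested that passed, and with 2.97% that passed as higher and 1.97% as lower, so the share among the members was near that background. At an unadjusted p under 0.05 in limma there were 8 of 32 members, beside 23% of all genes. They were 4 higher (NDEL1, BICD1, BICD2 and TRAK1) and 4 lower (DYNC1I2, ACTR1A, NINL and NUMA1). In edgeR's quasi-likelihood test on the recovered reads NDEL1 was called higher and 0 members lower, where 4.62% of all genes were called. In DESeq2 NDEL1 and BICD1 were called higher and DYNC1I2, NINL and NUMA1 lower, where 12.3% of all genes were called. In these bulk libraries fewer cells of a type and less RNA per cell cannot be told apart. The groups did not overlap in 10 of the 32 members (31.2%), against 27.7% of all genes tested. CA4 lay above in 6 of them, where the share of all genes was 14.3%, and below in 4, where it was 13.4%. With an unadjusted p under 0.05 as well, 4 members lay above (10.6% of all genes) and 3 below (9.53%).

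**Figure D1:**
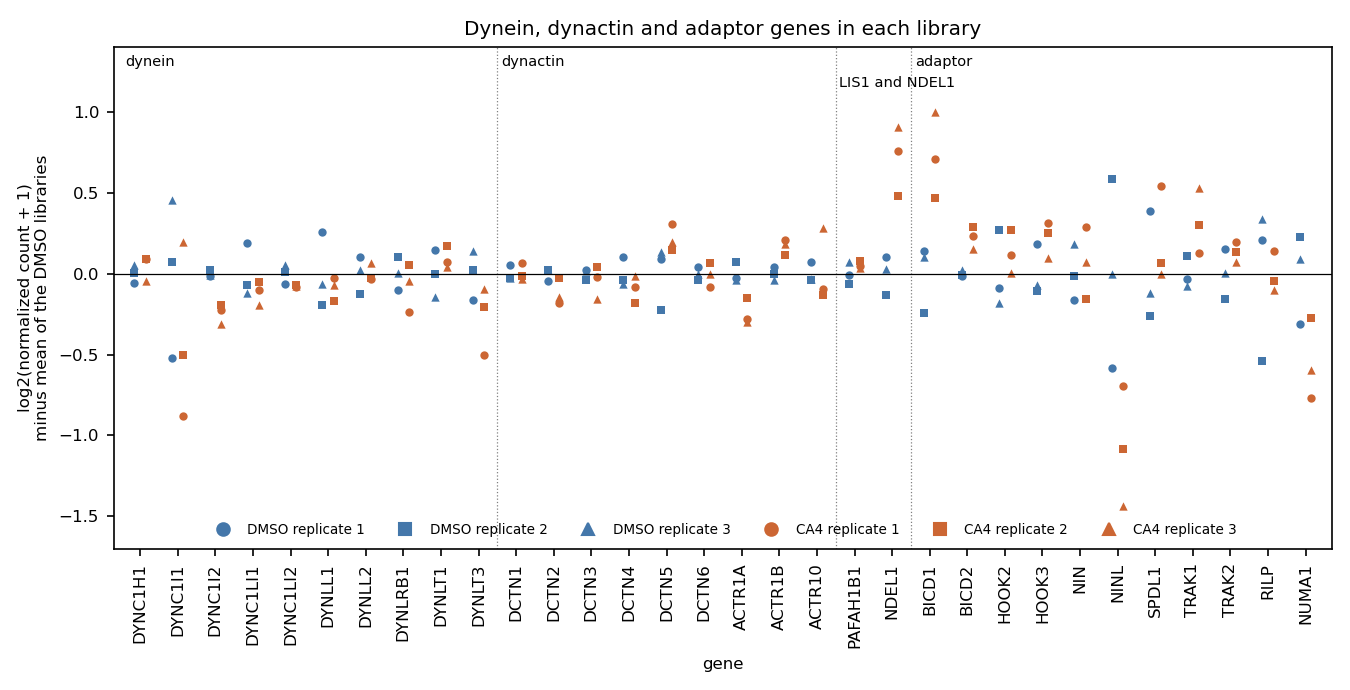
Each tested member in each library, as log2(normalized count + 1) minus the mean of the DMSO libraries, ordered by role, with blue for DMSO, orange for CA4 and 1 symbol shape for each replicate number. The dynein and dynactin genes lie close to 0 apart from the low DYNC1I1, while NDEL1 and BICD1 stand above all DMSO libraries in each CA4 library, and NINL and NUMA1 reach the lowest values among the adaptors.

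The median log2 fold change of the 32 members was 0.0035, beside -0.0082 over all genes tested. The median absolute log2 fold change of the members was 0.12 against 0.22 over all genes, which were not matched to them in abundance. It was 0.091 for the dynein subunits, 0.093 for dynactin, 0.22 for the adaptors and 0.38 for PAFAH1B1 and NDEL1. By role, the 10 dynein subunits had a median of -0.082 and the 9 dynactin subunits -0.0080, and the 11 tested adaptors had 0.13, with 8 fitted higher and 3 lower. Direction of the small changes depends on the scaling, because setting each library to the same total moved the median of all genes by -0.10.

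**Figure D2:**
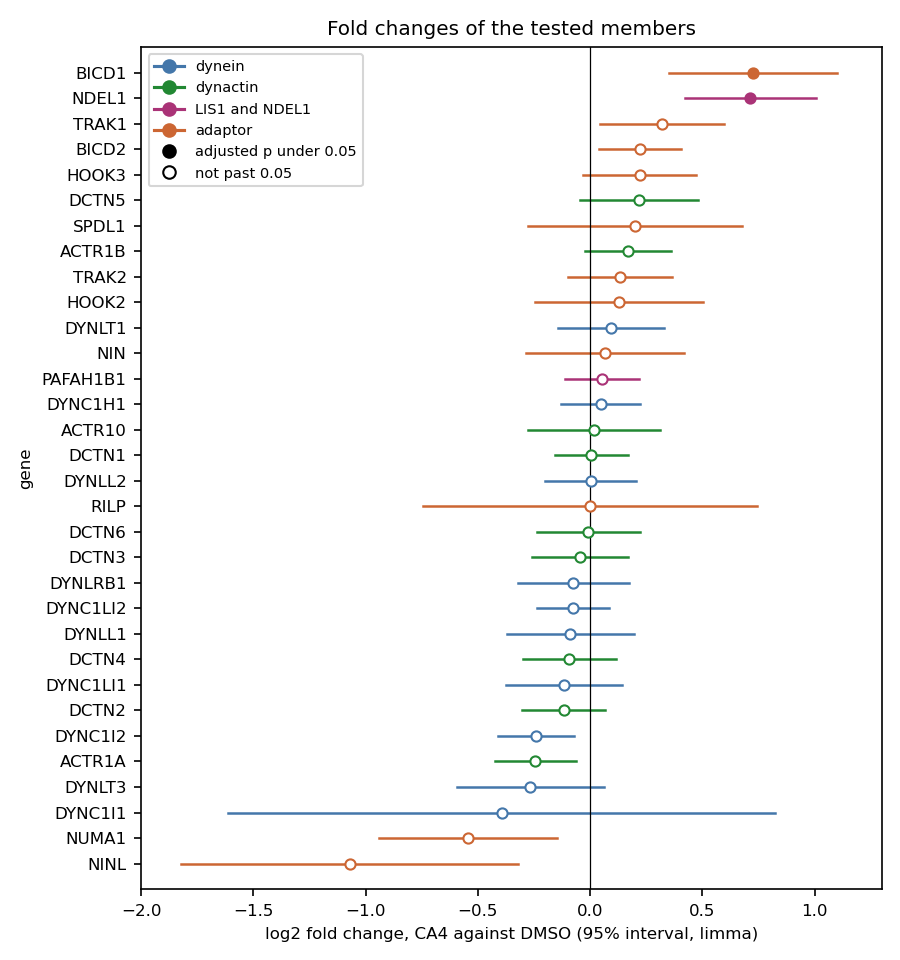
Log2 fold change of each tested member in CA4 against DMSO (points) with its 95% interval from limma (lines), in order of size and coloured by role; filled points passed the adjusted p of 0.05. BICD1 at 0.73 and NDEL1 at 0.71 are the filled points, and NINL at -1.07 and NUMA1 at -0.55 are lowest with wide intervals.

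NDEL1, which binds LIS1 and dynein and helps the motor load and start, rose. Its gene (ENSG00000166579) lies on chromosome 17 at 8413131 to 8490411, plus strand, in GRCh38. It had 1604, 1364 and 1519 normalized counts in replicates 1 to 3 of DMSO, against 2523, 2081 and 2794 in those of CA4. Every CA4 library lay above every DMSO library, with the lowest CA4 value well clear of the highest DMSO value. The means were 1496 ± 122 and 2466 ± 360 (SD, n = 3 each), which gives a log2 fold change of 0.71 (adjusted p = 0.0239 in limma, SE 0.12), which is 1.64-fold. It was higher in all 19 alternative fits and kept its call in 13 of them, and in 4 of the 6 fits without a library (DMSO replicate 2 or 3, CA4 replicate 1 or 3) the limma adjusted p was 0.0836 to 0.0944. MYH10, on the opposite strand, holds 0.905% of the NDEL1 exon bases in GENCODE release 29, and it had 1981 ± 234 normalized counts with CA4 against 2359 ± 83.5 with DMSO (SD, n = 3 each) and did not pass (log2 fold change -0.26, adjusted p = 0.188 in limma).

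PAFAH1B1, the gene of LIS1 itself, did not differ by more than its spread. It had 4675, 4499 and 4951 normalized counts in DMSO and 4860, 4962 and 4815 in CA4, so the groups overlapped. Its log2 fold change was 0.052 with a 95% interval from -0.11 to 0.22, which does not reach the size of the NDEL1 change. The sign of this small value turned under quantile normalization and with equal totals.

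BICD1, an adaptor that links dynein to Golgi-derived and other vesicles marked by RAB6, was the other member that rose. Its gene (ENSG00000151746) lies on chromosome 12 at 32106835 to 32383633, plus strand, in GRCh38. It had 983, 754 and 959 normalized counts in DMSO and 1460, 1235 and 1781 in CA4. The groups did not overlap, and replicate 2 was the lowest of each group, as it was for NDEL1. The means were 899 ± 126 and 1492 ± 274 (SD, n = 3 each), which gives a log2 fold change of 0.73 (adjusted p = 0.0483 in limma, SE 0.16). This call sat at the threshold. BICD1 was higher in all 19 alternative fits, passed in 7, and missed in edgeR with an adjusted p of 0.0501, under each of the 3 other scalings with limma adjusted p-values of 0.0522 to 0.0600, and without DMSO replicate 2 or 3 or CA4 replicate 1 or 3 with 0.130 to 0.152.

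BICD2, the closely related adaptor that acts in nuclear positioning and RAB6 vesicle transport, was also above DMSO in every CA4 library but by less. It had 1384, 1390 and 1422 normalized counts in DMSO and 1643, 1704 and 1554 in CA4. Its SD in DMSO was only 1.48% of the mean. The log2 fold change of 0.22 (SE 0.08, 95% interval 0.040 to 0.41) did not pass (adjusted p = 0.145 in limma).

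The bases before the RefSeq starts of NDEL1 and BICD1 are shown because these are the members that rose, and those of BICD2 because it is the relative of BICD1 that did not pass. Each run is the 250 bases before the start, 5′ to 3′ on the gene's strand, from RefSeq in GRCh38.p14, at chr17:8435634-8435883 on the plus strand for NDEL1 (inside the gene span given above, which has a start further upstream), chr12:32106597-32106846 on the plus strand for BICD1 and chr9:92764834-92765083 on the minus strand for BICD2. Capitals mark motif matches on either strand, which are GC boxes in all 3 genes, an NRF1 site in NDEL1, an NF-kB site overlapping the first GC box in BICD1, and CCAAT boxes in BICD2.
NDEL1: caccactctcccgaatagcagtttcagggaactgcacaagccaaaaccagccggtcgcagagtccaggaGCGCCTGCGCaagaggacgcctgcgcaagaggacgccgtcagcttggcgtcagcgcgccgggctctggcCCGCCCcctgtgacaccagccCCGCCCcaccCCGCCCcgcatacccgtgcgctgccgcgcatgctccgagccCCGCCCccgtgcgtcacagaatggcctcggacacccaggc
BICD1: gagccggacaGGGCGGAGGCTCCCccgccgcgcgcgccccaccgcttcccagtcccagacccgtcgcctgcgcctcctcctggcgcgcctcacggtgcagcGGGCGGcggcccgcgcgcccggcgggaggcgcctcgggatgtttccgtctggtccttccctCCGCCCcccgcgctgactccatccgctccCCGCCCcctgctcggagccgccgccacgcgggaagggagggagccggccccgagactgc
BICD2: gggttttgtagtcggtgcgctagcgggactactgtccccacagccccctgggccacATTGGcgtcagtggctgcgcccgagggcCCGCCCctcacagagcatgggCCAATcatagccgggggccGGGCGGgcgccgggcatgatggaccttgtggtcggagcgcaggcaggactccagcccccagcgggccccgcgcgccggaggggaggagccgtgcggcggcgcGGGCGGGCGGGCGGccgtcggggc

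These windows are rich in G and C, at 70.4% for NDEL1, 79.6% for BICD1 and 76% for BICD2, against a median of 58% over 35114 RefSeq windows of the same length. The GC box (GGGCGG) matched 4 times in NDEL1, 4 times in BICD1 and 5 times in BICD2, and 42.6% of all windows hold it. The NRF1 site had 1 match in NDEL1, in a window set where 5.07% hold it, and the NF-kB site had 1 match in BICD1, where 9.96% hold it. The CCAAT box (CCAAT), found in 32% of all windows, had 2 matches in BICD2 and none in the other two. The AP-1 site (TGANTCA, 6.57% of all windows), the CRE (TGACGTCA, 1.65%) and its shorter form (TGACGT, 7.1%), the TEAD site (GGAATG, 11.9%), the CHR element (TTTGAA, 13.3%), the E-box (CACGTG, 6.35%) and the SRF CArG box (1.16%) had no match in these 3 windows. Windows were found for 30 of the 34 members, 43 in all because some genes have several starts, and the GC box was in 32 of the 43 and the NRF1 site in 10. DYNLL2, DCTN6, ACTR10 and HOOK3 had no entry. A match describes letters in a window and not a bound factor.

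**Figure D3:**
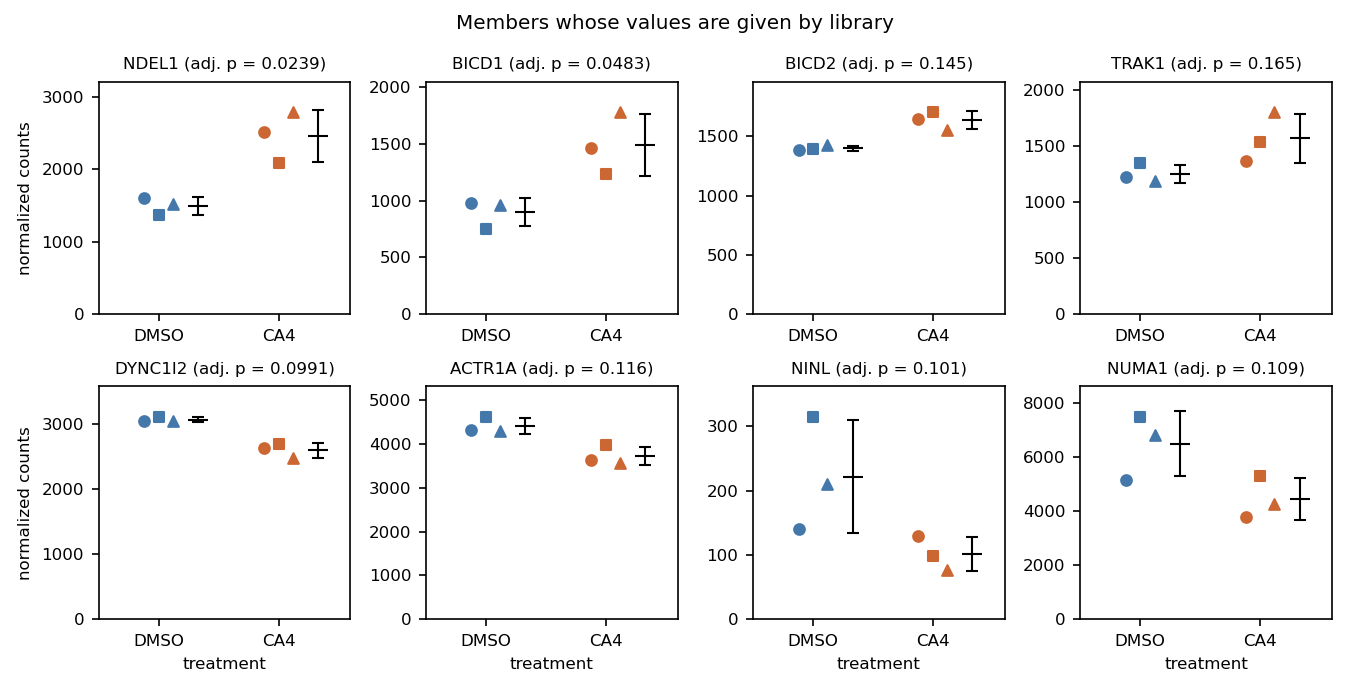
Normalized counts of 8 members in each library (circle, square and triangle for replicates 1, 2 and 3; blue for DMSO, orange for CA4), with the mean and SD of each group in black and the limma adjusted p above each panel; every axis starts at 0. CA4 lies above DMSO for NDEL1, BICD1, BICD2 and TRAK1 and below it for DYNC1I2, ACTR1A and NINL, and for NUMA1 the groups overlap.

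TRAK1 and TRAK2 bind mitochondria to kinesin and dynein. TRAK1 had 1219, 1342 and 1183 normalized counts in DMSO and 1364, 1533 and 1801 in CA4, with no overlap but a small gap between DMSO replicate 2 and CA4 replicate 1. Its log2 fold change was 0.32 (adjusted p = 0.165 in limma, SE 0.12). TRAK2 overlapped between groups, with a log2 fold change of 0.13 (adjusted p = 0.478 in limma, SE 0.10).

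The HOOK proteins join dynein to endosomes through the FTS and FHIP proteins. HOOK3 ranged from 1560 to 1907 normalized counts in DMSO and from 1798 to 2093 in CA4, a log2 fold change of 0.22 (adjusted p = 0.275 in limma, SE 0.11). HOOK2 ranged from 226 to 309 normalized counts in DMSO and from 257 to 310 in CA4, with a log2 fold change of 0.13 (SE 0.16). Leaving out 1 library moved this to between 0.038, without DMSO replicate 3, and 0.26, without DMSO replicate 2, and it was 0.028 with the same total. In GENCODE release 29, 4.35% of the exon bases of HOOK2 lie in JUNB on the opposite strand, and JUNB rose by 0.51 on the log2 scale (adjusted p = 0.0471 in limma, SE 0.11). The authors' use of strand is not given in the sources used here, and exchange of reads between the pair was not tested.

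HOOK1 was nearly silent in 5 libraries and not in the sixth. It had 0, 1.87 and 48.4 normalized counts in DMSO and 0.966, 0 and 1.11 in CA4, which is 51 recovered reads in DMSO replicate 3 and at most 2 in any other library. Its mean was under the filter and no fold change is given. RILP, which ties dynein to late endosomes and lysosomes through RAB7, was low in every library, at 24.3 to 45.6 normalized counts in DMSO and 33.4 to 39.6 in CA4. Its 95% interval of -0.74 to 0.74 is wide and leaves changes up to that size open in either direction.

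Among adaptors of the centrosome and the spindle, NINL had the lowest fold change of all members. NINL encodes the ninein-like protein, an adaptor found at centrosomes. It had 140, 315 and 210 normalized counts in DMSO and 130, 98.7 and 76.9 in CA4. All CA4 libraries were lower, but CA4 replicate 1 lay close to DMSO replicate 1, and the DMSO values differed by more than 2-fold among themselves. The log2 fold change of -1.07 (SE 0.32, 95% interval -1.82 to -0.32) did not pass (adjusted p = 0.101 in limma). Without DMSO replicate 1 it passed, at -1.36 with a limma adjusted p of 0.0405, and it passed in DESeq2 with 0.0166. It did not pass in the other 5 fits without a library, where it ranged from -1.26 to -0.78, the latter without DMSO replicate 2 (adjusted p = 0.263 in limma).

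NIN, the gene of ninein, which anchors microtubules at the centrosome, overlapped between groups. It had 404, 447 and 513 normalized counts in DMSO and 552, 406 and 475 in CA4, a log2 fold change of 0.067 (SE 0.15). Its 95% interval ran from -0.28 to 0.42.

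NUMA1 encodes NuMA, a nuclear protein that recruits dynein to spindle poles and the cell cortex in mitosis. It was singled out after its values were seen, since its groups overlapped. It had 5165, 7498 and 6829 normalized counts in DMSO and 3773, 5302 and 4252 in CA4. CA4 replicate 2 exceeded DMSO replicate 1, and the other CA4 libraries were below all of DMSO. The log2 fold change was -0.55 (adjusted p = 0.109 in limma, SE 0.17). Without DMSO replicate 1 it was -0.70 with a limma adjusted p of 0.0399, and DESeq2 gave an adjusted p of 0.0223. It also passed in limma with the replicate number as a block (adjusted p = 0.00398). It did not pass in the other 5 fits without a library, and was -0.43 without DMSO replicate 2 and also without CA4 replicate 1 (adjusted p = 0.299 and 0.272 in limma). IL18BP, whose exons on the opposite strand cover 4.43% of the NUMA1 exon bases, did not pass (log2 fold change -0.061, SE 0.16). LRTOMT, on the same opposite strand with 2.38% of the NUMA1 exon bases, did not pass either (-0.28, SE 0.40).

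SPDL1 encodes Spindly, the adaptor that brings dynein to kinetochores. It had 1294, 826 and 910 normalized counts in DMSO and 1440, 1037 and 990 in CA4. Replicate 1 was highest in each group, as it was for all 25 proliferation genes, of which MKI67 had 4849, 2045 and 2246 in DMSO, against 4233, 2388 and 1191 with CA4. The log2 fold change of SPDL1 was 0.20 (adjusted p = 0.607 in limma, SE 0.20), with a spread within groups of 24.7% of the mean in DMSO and 21.4% in CA4. Leaving out 1 library moved it to between 0.032, without CA4 replicate 1, and 0.39, without DMSO replicate 1. MKI67 is shown as the usual marker of cycling cells and was chosen after its values were seen. Of the 25 proliferation genes 24 were fitted lower in CA4, with a median log2 fold change of -0.44, and 0 passed in limma. At an unadjusted p under 0.05 there were 3, beside 23% of all genes, all of them lower: MCM2 at -0.69, CCNE2 at -0.64 and MCM5 at -0.73. In edgeR 0 passed, and in DESeq2 1 was lower. The part of proliferation in the spread of SPDL1 was not tested. The 3 genes of the RZZ complex, the kinetochore partner of Spindly, had log2 fold changes of 0.076 (ZW10), -0.15 (ZWILCH) and -0.41 (KNTC1), with 0 passing in limma, edgeR or DESeq2 and 0 at an unadjusted p under 0.05.

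None of the 10 dynein genes passed the test. DYNC1H1, the heavy chain, had 11668, 12185 and 12621 normalized counts in DMSO and 12946, 12958 and 11777 in CA4. The groups overlapped, and the log2 fold change of 0.046 had a 95% interval of -0.13 to 0.22. Its sign turned under quantile normalization and with equal totals.

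DYNC1I2, the intermediate chain of most cell types, which docks the motor onto dynactin, was lower in every CA4 library. It had 3044, 3117 and 3050 normalized counts in DMSO and 2630, 2689 and 2473 in CA4. The DMSO libraries agreed to within 1.32% (SD over mean). The log2 fold change of -0.24 (SE 0.07, 95% interval -0.41 to -0.074) missed the threshold in limma, with an adjusted p of 0.0991. It passed with libraries set to equal totals, at -0.34 with a limma adjusted p of 0.0477, and in DESeq2, with 0.0455. It also passed in limma with the replicate number as a block (adjusted p = 0.0405). A pseudogene, DYNC1I2P1, shares 18.4% of the 50-base words of DYNC1I2 in GENCODE release 29, and its row held a mean of only 0.322 normalized counts. DYNC1I1, the intermediate chain known mainly from neurons, was near the filter, at 7.73, 12.2 and 16.1 normalized counts in DMSO and 5.80, 7.85 and 13.4 in CA4.

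The light intermediate chains, which are the docking site for most adaptors, and the light chains did not pass the test. DYNC1LI1 had a log2 fold change of -0.12 (SE 0.11) and DYNC1LI2 of -0.076 (SE 0.07). DYNC1LI2 lay between 4709 and 5101 normalized counts in DMSO and between 4643 and 4689 in CA4, so its groups did not overlap although the shift was small. Of the light chains, DYNLL1, DYNLL2, DYNLRB1 and DYNLT1 had log2 fold changes from -0.088 to 0.094 and DYNLT3 had -0.27 (adjusted p = 0.308 in limma, SE 0.14). DYNLL1 and DYNLL2 are hub proteins with many partners outside dynein. DYNLL1 was highest in DMSO replicate 1, at 4003 against 2923 to 3289 in the other 5 libraries. Of the 10 dynein genes 0 passed in limma (1 at an unadjusted p under 0.05), 0 in edgeR and 1 in DESeq2.

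None of the 9 dynactin genes passed in limma (1 at an unadjusted p under 0.05), edgeR or DESeq2. DCTN1, the p150 subunit that grips microtubules and the intermediate chain, had 6185, 5848 and 5836 normalized counts in DMSO and 6228, 5889 and 5819 in CA4. The groups were nearly superimposed, and the log2 fold change of 0.0054 had a 95% interval of -0.16 to 0.17. DCTN2, the p50 dynamitin of the shoulder, had a log2 fold change of -0.12 (SE 0.08). The pointed-end subunits DCTN4, DCTN5 and DCTN6 and ACTR10 had -0.093, 0.22, -0.0080 and 0.017, and the shoulder subunit DCTN3 had -0.044. For DCTN5 all CA4 libraries, at 2518 to 2813 normalized counts, were above DMSO, at 1944 to 2495 (limma adjusted p = 0.297). Its value was 0.11 without DMSO replicate 2 and 0.12 with the same total. In GENCODE release 29, 24.8% of the 50-base words of DCTN5 also occur in AC008870.1 and 9.93% of those of DCTN6 in LEPROTL1, so their counts could hold reads of those genes.

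The filament subunits of dynactin leaned opposite ways. ACTR1A, which encodes the main ARP1 subunit, had 4320, 4629 and 4292 normalized counts in DMSO and 3630, 3978 and 3580 in CA4, with all CA4 libraries lower. Its log2 fold change was -0.24 (SE 0.08, 95% interval -0.43 to -0.062, limma adjusted p = 0.116). ACTR1B, which encodes the beta form, had 1044, 1012 and 985 in DMSO and 1168, 1097 and 1151 in CA4, with all CA4 libraries higher. Its log2 fold change was 0.17 (SE 0.08, 95% interval -0.022 to 0.36, limma adjusted p = 0.270). Neither passed. Under the 3 other scalings ACTR1A ranged from -0.35 to -0.28 and ACTR1B from 0.067 to 0.14, the lowest with the same total.

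The windows before the starts of ACTR1A and ACTR1B are shown because these 2 forms of ARP1 leaned apart. They are the 250 bases before the RefSeq start in GRCh38.p14, 5′ to 3′ on the gene's strand, at chr10:102502713-102502962 and chr2:97664045-97664294, both on the minus strand, with capitals for GC boxes and CCAAT boxes.
ACTR1A: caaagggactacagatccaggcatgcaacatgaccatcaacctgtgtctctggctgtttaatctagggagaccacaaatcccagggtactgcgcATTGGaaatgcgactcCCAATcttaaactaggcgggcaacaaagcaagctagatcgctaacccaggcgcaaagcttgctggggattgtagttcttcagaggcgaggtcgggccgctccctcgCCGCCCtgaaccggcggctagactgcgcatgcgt
ACTR1B: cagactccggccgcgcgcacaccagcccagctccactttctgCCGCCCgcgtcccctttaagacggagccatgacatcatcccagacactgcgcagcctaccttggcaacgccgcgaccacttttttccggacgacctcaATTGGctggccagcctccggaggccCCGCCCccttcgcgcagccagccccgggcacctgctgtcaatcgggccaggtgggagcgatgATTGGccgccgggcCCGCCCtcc

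ACTR1A held 1 GC box and 2 CCAAT boxes and ACTR1B 3 and 2, and none of the other motifs matched in either window. The ACTR1A window was 55.6% G and C, and that of ACTR1B 68.8%. The remaining parts of the dynactin filament, the capping proteins CAPZA1, CAPZA2 and CAPZB and beta-actin (ACTB), were taken from a separate list of 4 genes because they serve actin filaments as well. They had log2 fold changes of 0.030, 0.19, 0.010 and 0.32, and 0 passed in limma (ACTB at an unadjusted p under 0.05). ACTB was called higher in edgeR (adjusted p = 0.0488) and in DESeq2 (7.74e-04), and its limma adjusted p was 0.0859. With quantile normalization its log2 fold change was 0.12 (adjusted p = 0.401 in limma) and with the same total 0.22 (0.187). For 17 of the 19 dynein and dynactin genes the 95% interval lay within 0.5 on the log2 scale either way, the exceptions being the low DYNC1I1 and DYNLT3.

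**Figure D4:**
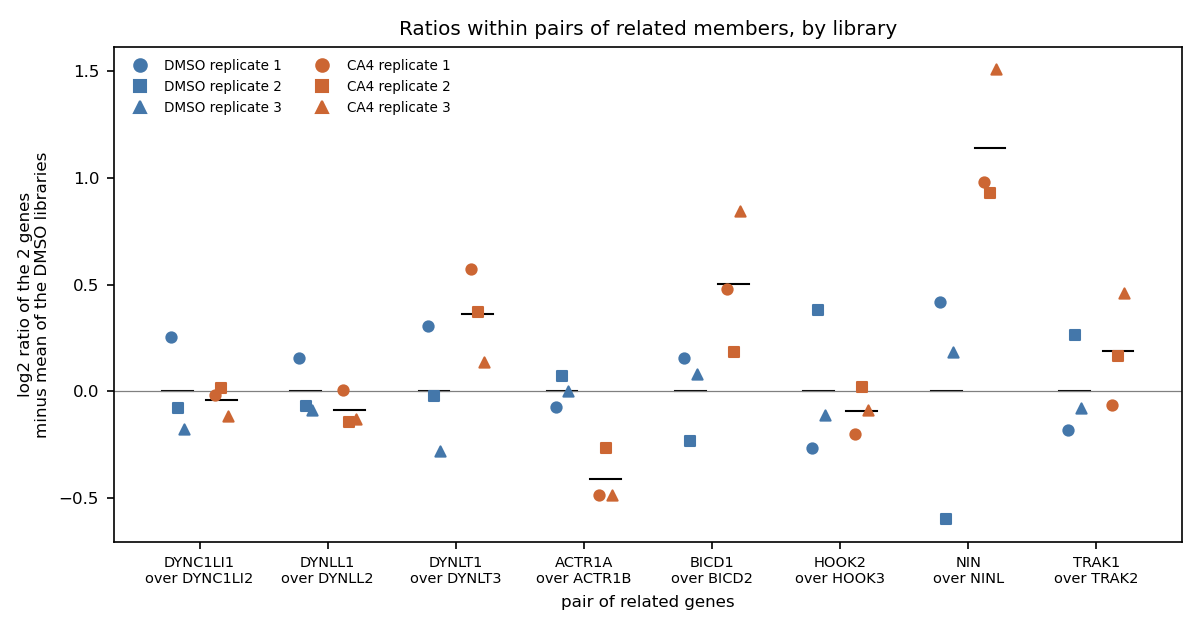
Log2 ratio of 8 pairs of related members in each library, minus the mean ratio of the DMSO libraries, with black lines for the group means, blue for DMSO and orange for CA4. The ratio of ACTR1A to ACTR1B is lower in all CA4 libraries and those of BICD1 to BICD2 and NIN to NINL are higher, while the other 5 pairs overlap.

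A ratio of 2 genes within a library does not depend on how libraries are scaled, except through the 1 added to each count. That addition matters most for low genes such as DYNC1I1. Related members were also set against each other in this way, with no test. The log2 ratio of ACTR1A to ACTR1B was 2.12 ± 0.073 (SD, n = 3) in DMSO against 1.71 ± 0.13 (SD, n = 3) in CA4, a difference of -0.41. ACTR1A was lower and ACTR1B higher in every CA4 library, so this separation follows from the values given above and adds no further evidence. For BICD1 over BICD2 it was -0.65 ± 0.21 and -0.15 ± 0.33 (SD, n = 3 each), and for NIN over NINL 1.103 ± 0.53 and 2.24 ± 0.32 (SD, n = 3 each). These 3 pairs did not overlap between groups, beside 27.7% of single genes tested. No share over all pairs of genes was taken, so the count is not read as a result about these pairs. The pairs DYNC1I1 and DYNC1I2, DYNC1LI1 and DYNC1LI2, DYNLL1 and DYNLL2, DYNLT1 and DYNLT3, HOOK2 and HOOK3, and TRAK1 and TRAK2 overlapped, with differences between -0.15 and 0.36, and the first of these is not drawn.

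Levels of members were compared between genes only per kilobase of exon in the basic set of GENCODE release 29, which may differ from the annotation the authors used. The order below depends on these lengths. DYNLT1 has 0.726 kilobases in the basic set against 2949 bases over all exons of that release, and SPDL1 has 2.692 kilobases against 4777 bases. In DMSO the highest members were ACTR1A, at 1560 ± 66.0 normalized counts per kilobase, DYNLT1, at 1511 ± 151, and DYNLL1, at 1389 ± 230 (SD, n = 3 each). DCTN1, DCTN2, DYNC1I2 and DYNC1LI2 followed at 1015 to 1148, with PAFAH1B1 at 857 ± 41.5 and DYNC1H1 at 608 ± 23.9 (SD, n = 3 each). NUMA1 was the most abundant adaptor at 863 ± 160, followed by SPDL1 at 375 ± 92.8 (SD, n = 3 each). The transport adaptors were lower, with TRAK2 at 250, BICD2 at 218, HOOK3 at 117, TRAK1 at 116, HOOK2 at 99.2 and BICD1 at 84.0 normalized counts per kilobase in DMSO. On this scale BICD1 reached 140 ± 25.6 in CA4 (SD, n = 3), still under BICD2 at 254 ± 11.8 (SD, n = 3). DYNC1I1, at 3.04 per kilobase, was far below DYNC1I2, at 1047, in these epithelial cells.

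Beyond the members, 39 further adaptors and cofactors of dynein were listed, of which 34 were tested. In limma 2 of them rose and 0 fell, 5.88% against the 4.94% of all genes. At an unadjusted p under 0.05 there were 10, of which 9 were higher and 1 lower, beside 23% of all genes. In edgeR 2 were higher and 0 lower, where 4.62% of all genes were called, and in DESeq2 3 and 0, where 12.3% were. The groups did not overlap in 14 of the 34 (41.2%), against 27.7% of all genes. CA4 lay above in 12, where the share of all genes was 14.3%, and below in 2, where it was 13.4%. The median log2 fold change was 0.096, beside -0.0082 over all genes. Setting each library to the same total moved the median of all genes by -0.10, which is as large as the median of this list. The list was chosen with earlier results of these data known. CDR2L and its relative CDR2 encode cytoplasmic proteins known as antigens of paraneoplastic cerebellar degeneration. CDR2L had 708, 647 and 590 normalized counts in DMSO and 1209, 1087 and 959 in CA4. Its groups were far apart, and its log2 fold change of 0.74 (adjusted p = 0.0201 in limma, SE 0.12) was of the size of those of NDEL1 and BICD1. Leaving out DMSO replicate 2 or 3 or CA4 replicate 1 or 2 ended this call, with limma adjusted p-values up to 0.0891. CDR2 leaned the same way, with a log2 fold change of 0.45 (adjusted p = 0.0862 in limma, SE 0.13).

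CCDC88C, which encodes DAPLE, a hook-related protein of Wnt signalling, also rose. It had 32.8, 40.2 and 27.5 normalized counts in DMSO and 89.9, 61.7 and 94.7 in CA4. All CA4 libraries were above DMSO, at a low level. The log2 fold change was 1.26 (adjusted p = 0.0464 in limma, SE 0.27), and the call was lost whichever library was left out, with limma adjusted p-values of 0.0505 to 0.151. It was also lost with the same 75th percentile and the same total (0.0501 and 0.0537). Its relatives CCDC88A and CCDC88B had log2 fold changes of -0.27 (SE 0.15) and -0.78 (SE 0.51), and neither passed.

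**Figure D5:**
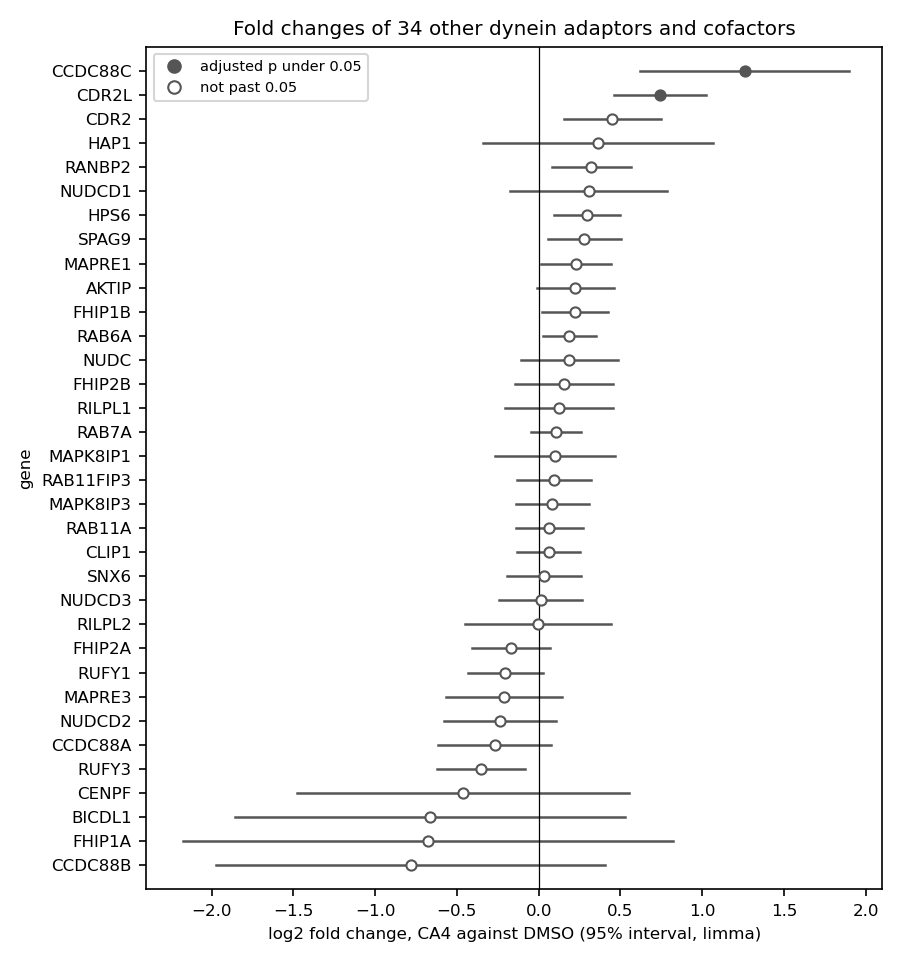
Log2 fold change of 34 further dynein adaptors and cofactors in CA4 against DMSO (points) with 95% intervals from limma (lines), in order of size; filled points passed the adjusted p of 0.05. CCDC88C at 1.26 and CDR2L at 0.74 are filled, and most of the others have intervals that include 0.

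Dynein-2, the separate motor that runs inside cilia and shares light chains with cytoplasmic dynein, was listed with 5 genes. All 5 were fitted lower, with a median log2 fold change of -0.19, and 0 passed in limma (1 at an unadjusted p under 0.05), edgeR or DESeq2. DYNC2H1, its heavy chain, had 156, 293 and 260 normalized counts in DMSO and 168, 146 and 60.2 in CA4. The groups overlapped at replicate 1, where DMSO was the lower, and the log2 fold change was -0.997 (adjusted p = 0.204 in limma, SE 0.41). Leaving out 1 library moved it to between -1.28 and -0.54, the smallest change being without CA4 replicate 3. DYNC2LI1 and DYNC2I2 had log2 fold changes of -0.40 (SE 0.19) and -0.13 (SE 0.10).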

How the data were processed

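Gene expression was measured by polyA RNA sequencing in 3 DMSO and 3 CA4 libraries of hTERT RPE1 cells. The authors deposited a normalized signal per gene, which equals reads over 1 constant for each column. Per the submitters' processing notes, Trim Galore 0.6.6, FastQC 0.12.1, STAR 2.7.9a, Salmon 1.8.0, DESeq2 1.44.0 and the build GRCh38 were used, with no role or order stated, and annotation and strand use are not given in the sources used here. In each column 100% of values were whole multiples of 1 read within a tolerance of 0.01, which gave recovered reads. These could be rounded estimates.

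Genes averaging 10 or more normalized counts were fitted with limma 3.58.1 (R 4.3.3) on log2(normalized count + 1) with treatment as the only term, a mean-variance trend and moderation. Errors are SDs over 3 libraries or limma's moderated SE. Members and lists were chosen with earlier results of these data known. Every member is accounted for, with values by library for members past the threshold or not overlapping at an unadjusted p under 0.05, and from each other list those past the threshold or up to 3 with the smallest p. Markers of cell identity, MKI67, NUMA1 by library, the relatives of CDR2L and CCDC88C and partners sharing exons were added outside this rule. PAFAH1B1, NIN, SPDL1, HOOK1, DYNC1H1, DYNC1I1, DCTN1 and ACTR1B were also given by library outside it. Alternatives were pseudocounts of 0.1 and 5, no filter, a mean of at least 50, 3 scalings, other variance models, edgeR 4.0.16, DESeq2 1.42.0, a replicate block and leaving out each library. Scripts were tested on simulated data. A value of 0 allows up to 3 reads, for counting error only. Gene positions come from GENCODE release 29 (GRCh38), and promoter sequences from RefSeq (GRCh38.p14).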

Additional observations from a re-analysis of the deposited data

How the results depend on the processing

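All alternatives for counts and fold changes were listed with the design. Those for ratios of related genes were added after seeing the data and moved no ratio by more than the spread between replicates.

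Against 413 genes higher and 275 lower, the same total gave 523 lower, no variance trend 51 and 52, no moderation 13 and 10, and DESeq2 907 and 706. Leaving out 1 library gave 50 to 605 higher and 31 to 389 lower. Among the members, 2 were higher and 0 lower. The number higher was 1 with a pseudocount of 0.1, no filter, quantile normalization, the same 75th percentile, the same total or edgeR, 0 without the trend or without moderation, and 0 to 2 without a library. The number lower was 1 with the same total, 3 in DESeq2 and 0 to 2 without a library. Among the other adaptors and cofactors, 2 were higher and 0 lower. The number higher was 1 with no filter, with a mean of at least 50, with the same 75th percentile or with the same total, 0 without the trend or without moderation, and 0 to 2 without a library. Of the fits without a library, the one without DMSO replicate 1 gave the most genes. The cause of these shifts was not tested. The share of calls that were higher was 60.0%, and 34.8% with the same total.

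The log2 fold changes that turned sign were all small. Under quantile normalization these were DYNC1H1 at -0.048, DYNLL2 at -0.056, DCTN1 at -0.087, DCTN6 at 0.028, ACTR10 at -0.0073, PAFAH1B1 at -0.033, RILP at 0.044 and CAPZA1 at -0.042. With the same 75th percentile they were DYNLL2 at -0.031, DCTN1 at -0.027, ACTR10 at -0.016 and CAPZA1 at -0.0029. With the same total they were DYNC1H1 at -0.055, DYNLL2 at -0.10, DYNLT1 at -0.0076, DCTN1 at -0.096, ACTR10 at -0.085, PAFAH1B1 at -0.049, NIN at -0.034 and CAPZA1 at -0.072. RILP was 0.00063 with a pseudocount of 0.1, and DYNLL2 was -0.0015 in DESeq2. Without a library the ranges of those that turned were -0.11 to 0.092 for ACTR10, -0.065 to 0.13 for CAPZA1, -0.024 to 0.033 for DCTN1, -0.088 to 0.013 for DCTN3, -0.043 to 0.029 for DCTN6, -0.19 to 0.041 for DYNLL1, -0.062 to 0.053 for DYNLL2, -0.14 to 0.0049 for DYNLRB1, -0.042 to 0.18 for NIN and -0.27 to 0.17 for RILP. NDEL1 and BICD1 lost their calls without the trend (limma adjusted p = 0.0766 and 0.107) and without moderation (0.132 and 0.181).

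With a replicate block, 1260 genes were higher and 1137 lower, with 3 members lower (DYNC1I2, ACTR1A and NUMA1, limma adjusted p = 0.0405, 0.0301 and 0.00398) and 6 other cofactors higher and 1 lower. The deviations of same-numbered libraries correlated at 0.202, 0.159 and 0.0588, and those of the other pairs at -0.214 to 0.0741. The labels give the same numbers in each group but do not say that they pair the libraries. Whether they do was not tested.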
